A study of Arabidopsis thaliana with 6 samples.

Results

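The genes described here are the 45 loci of the nuclear auxin response in Arabidopsis thaliana: 28 Aux/IAA repressors, 12 auxin response factors (ARFs) and 5 auxin receptors of the TIR1/AFB family. They were picked by locus identifier as members of known gene families, a rule that uses no measured value, although the families were proposed with earlier results of these data in view. All 45 were among the 24439 genes in the files. RNA was sequenced from whole seedlings of 3 genotypes, each with 2 libraries that the series describes as biological replicates. Col is the wild type. The double mutant f1f3 is homozygous for fypp1 and fypp3, mutations in the genes for catalytic subunits of the phosphatase PP6. The mutant pifq lacks several PIFs, transcription factors that hold seedlings in the dark-grown form. The spelling of its genotype label is faulty, and it is taken here as the homozygous quadruple mutant of PIF1, PIF3, PIF4 and PIF5. Seeds of every genotype were kept 3 days at 4 °C in the dark, given 12 h of white light and then grown 4 days in darkness at 22 °C. Nothing in the design adds auxin, so the values are steady-state transcript levels, and in RNA from whole seedlings fewer cells of a type and less RNA per cell cannot be told apart.

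Auxin is read in the nucleus by a short pathway. TIR1/AFB proteins are F-box proteins that bind auxin together with an Aux/IAA protein and mark the latter for degradation by the proteasome. Aux/IAA proteins otherwise sit on ARFs and, with co-repressors of the TOPLESS family, keep the ARFs' target genes off. Many Aux/IAA genes are themselves switched on by auxin, which closes a feedback loop. ARFs bind short TGTC-containing elements, and the family holds activators (ARF5, ARF6, ARF7, ARF8 and ARF19) as well as repressors. In dark-grown seedlings the pathway takes part in elongation of the hypocotyl and in formation of the apical hook. PIFs bind the G-box and the related PBE-box in promoters, and IAA19 and IAA29 are among the auxin genes known to respond to them.

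Each deposited value is a read count divided by a size factor of its library, and 1 read was worth 0.799 to 1.29 in the 6 libraries, which held 17.9 to 27.7 M reads assigned to genes. A gene was tested when its value was at least 10 in at least 2 libraries, which 44 members met. The exception, IAA33, lay between 0.0 and 7.9 in all 6 libraries. Of the mutated genes, FYPP1 and FYPP3 were lower in f1f3 (log2 fold changes -1.14 and -1.11) and PIF3 and PIF5 were lower in pifq (-5.24 and -2.32). PIF1 (0.46) and PIF4 (0.89) were not lower in pifq. PIF4 (-2.15) and PIF5 (-1.13) were also lower in f1f3. The deposited values of the seed storage and embryo markers summed to 20525 in pifq replicate 1 against 36.1 to 263.4 in the other libraries, and each of 7 such markers was at 0 in 1 to 3 libraries.

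Levels of different genes were compared per kilobase of exon. The receptor genes kept TIR1 on top in every genotype, with 1797 ± 85.2 per kb in Col (SD, n = 2), 1596 ± 252 in f1f3 and 1433 ± 19.5 in pifq. In Col the other receptors followed at 851 ± 36.8 for AFB2, 849 ± 50.5 for AFB1, 709 ± 37.2 for AFB3 and 574 ± 37.1 for AFB5, and the levels of AFB2 and AFB1 differed by less than their spread. In f1f3 the order changed, with AFB1 at 1098 ± 3 per kb in rank 2 and AFB2 at 665 ± 87.1 in rank 3, and the share of AFB1 in the summed receptor transcripts was 23.9% against 17.8% in Col and in pifq.

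Among the ARFs, ARF2, a repressor that limits organ growth, stood first in all genotypes, with 2155 ± 316 per kb and 33.8% of the summed ARF transcripts in Col. ARF6 followed with 19.5% of the sum in Col, 21.8% in f1f3 and 12.9% in pifq. ARF17 was lowest in every genotype, at 76.0 ± 10.7 per kb in Col. Among the Aux/IAA genes IAA9 led at 2804 ± 86.5 per kb in Col, before IAA7 (2365 ± 17.1), IAA17 (2149 ± 451) and IAA16 (2114 ± 244). In Col the level of IAA17 differed from those of IAA7 and IAA16 by less than its spread, and IAA7 lay above IAA16 in both libraries. These leading genes and IAA8 carried most of the family's transcripts, and the 5 least abundant genes (IAA5, IAA34, IAA30, IAA31 and IAA33) each had at most 0.1% in Col.

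**Figure D1:**
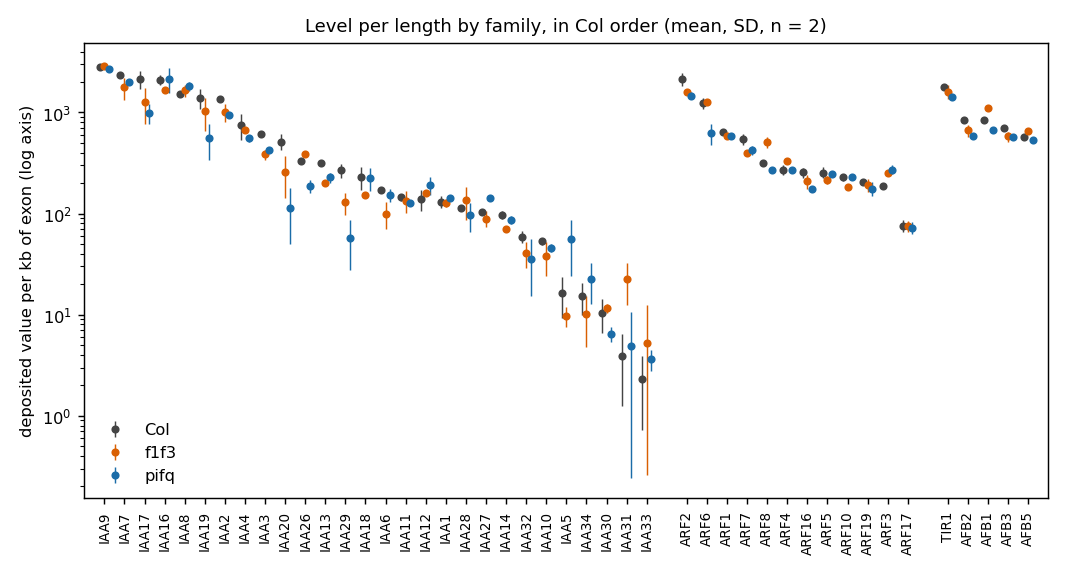
Level of each of the 45 genes per kilobase of exon (log axis) in Col, f1f3 and pifq, as the mean of 2 libraries with the SD as bars, grouped into Aux/IAA, ARF and TIR1/AFB genes. Where the SD reaches the mean, as for IAA31 and IAA33, the lower bar is shortened to fit the log axis. IAA9, ARF2 and TIR1 lead their families in all genotypes, and IAA20 and IAA29 are lower in pifq than in the other genotypes.

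Summed over the family, Aux/IAA transcripts per kb came to 18099 and 17428 in the Col libraries, 15814 and 13092 in f1f3, and 14251 and 13823 in pifq. Both mutants lay below Col in both libraries, and f1f3 overlapped with pifq. The ARF sums were 6217.7 and 6552.4 in Col, 5712.7 and 5957.2 in f1f3, and 4571.9 and 5057.5 in pifq, again with both mutants below Col at the authors' scaling. The receptor sums were 4955.3 and 4606.3 in Col, 4892.0 and 4281.5 in f1f3, and 3780.4 and 3814.5 in pifq, so that both pifq libraries lay below Col while f1f3 overlapped with it. These sums are dominated by the abundant genes, rest on the authors' size factors and were not tested. Scaling by library totals moved the median of all genes in f1f3 against Col by 0.10 on the log2 scale. The ARF gap of f1f3 is small enough that it may depend on the scaling. Of all tested genes, 33% lay below Col without overlap in f1f3 and 27.4% in pifq.

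Single genes were tested with limma across all 20581 genes, with Benjamini-Hochberg adjustment and a threshold of 0.05. In f1f3 against Col, 1 of the 44 tested members rose and 2 fell, together 6.82%, where 24.4% of all tested genes were called (11.6% higher and 12.8% lower). In this fit the share of members called was below that of all genes. In pifq against Col, 0 rose and 4 fell, together 9.09%, where 6.48% of all genes were called (3.61% higher and 2.87% lower). None rose with edgeR or DESeq2 either. At an unadjusted limma p under 0.05, 2 members were higher and 12 lower, where 23.5% of all genes passed in either direction. In pifq against f1f3, 1 was higher and 4 were lower, together 11.4%, against 16% of all genes (9.36% higher and 6.63% lower). Both mutants are compared with the same Col libraries, and each mutant enters 2 of the comparisons, so the 3 sets of calls share samples. The limma counts are from the fit without a replicate block. With the block more members and more genes were called in each comparison.

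The members lay to the lower side in both mutants, though most by less than the test could call. Their median log2 fold change was -0.26 in f1f3 and -0.22 in pifq, against -0.00 and -0.01 for all tested genes. In pifq 35 of 44 members (79.5%) had a fold change below 0, against 51% of all genes, and in f1f3 31 of 44 (70.5%), against 50.2%. Both pifq libraries lay below both Col libraries for 27 members (61.4%, with 27.4% of all genes), and above them for 5 (11.4%, with 27.1%). In f1f3 the counts were 21 below (47.7%, with 33% of all genes) and 7 above (15.9%, with 32.8%). In either direction the libraries were apart for 54.5% of all genes in pifq against Col and 65.9% in f1f3 against Col. Between the mutants both pifq libraries were above both f1f3 libraries for 11 members (25%, with 29.3% of all genes) and below for 16 (36.4%, with 30%, and 59.2% in either direction), close to the background. By family the medians in f1f3 and pifq were -0.43 and -0.22 for the Aux/IAA genes, -0.13 and -0.18 for the ARFs, and -0.18 and -0.33 for the receptors. Scaling by library totals instead of the authors' factors moved the median of all genes in f1f3 against Col by 0.10 on the log2 scale and turned the split of calls from 47.5% to 58.9% higher, and in pifq against f1f3 it moved the median by -0.11 and the split from 58.6% to 43.3%. For pifq against Col the median of all genes moved by at most 0.01. With library totals the f1f3 medians were -0.22 for the Aux/IAA genes, -0.01 for the ARFs and -0.06 for the receptors, each below that shift of 0.10. The smaller scale of library totals also shrinks fold changes, so these medians do not isolate the scaling.

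**Figure D2:**
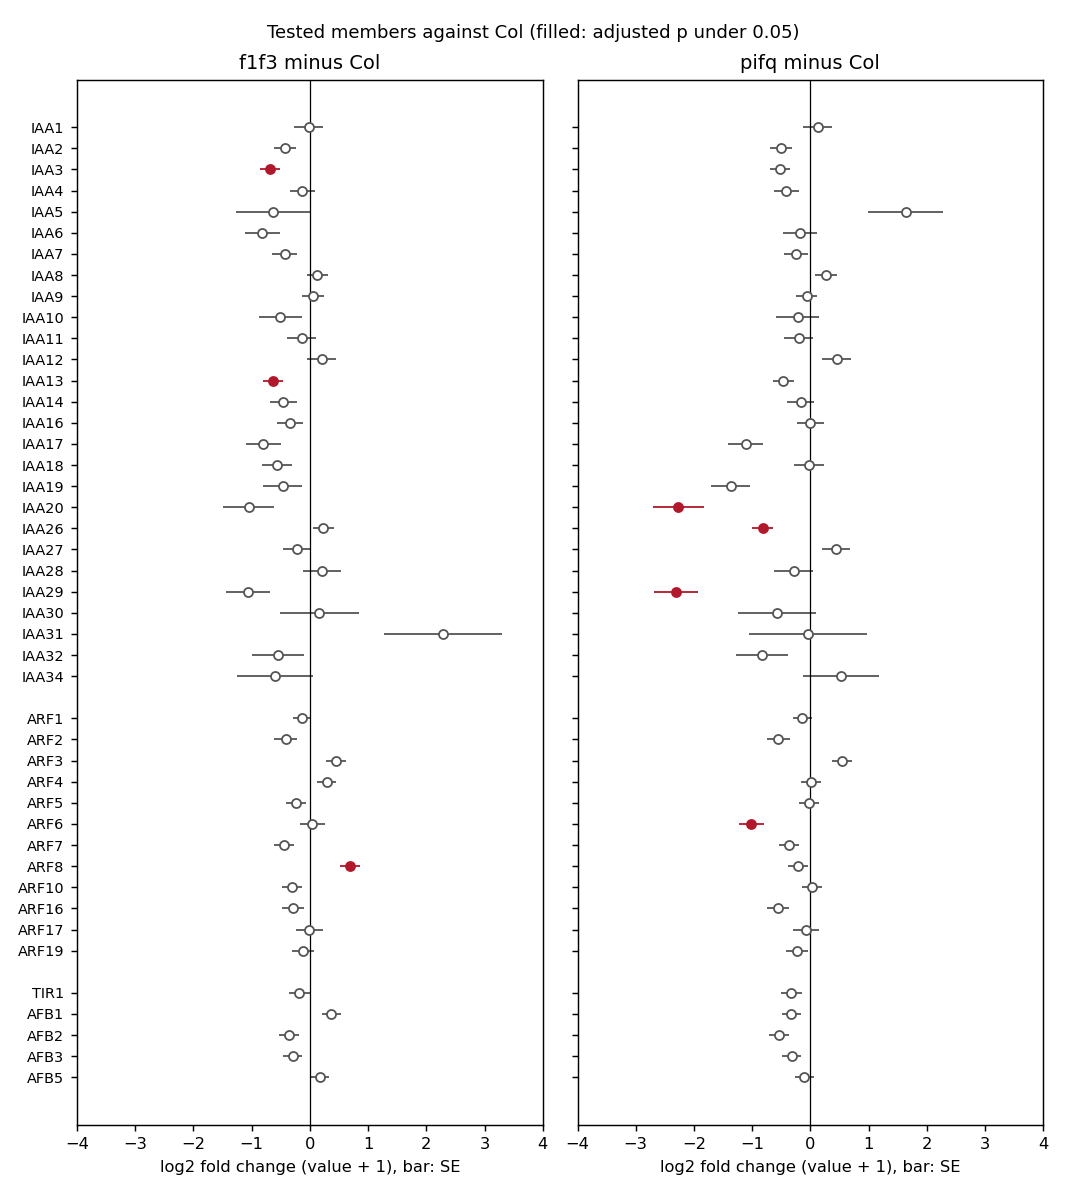
Log2 fold change (horizontal axis) of the 44 tested members in f1f3 against Col and in pifq against Col, with bars of 1 standard error from limma and filled marks for genes past the adjusted p threshold of 0.05. In pifq against Col 35 of 44 members lie below 0, and 4 of them, IAA20, IAA26, IAA29 and ARF6, passed.

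The Aux/IAA genes with the largest falls were IAA29 and IAA20, both lowest in pifq. IAA29 (AT4G32280, chromosome 4, 15583332 to 15584903 on the plus strand of TAIR10.1) encodes a PIF-responsive Aux/IAA protein. Its values were 305.9 and 379.8 in Col, 193.7 and 136.9 in f1f3, and 46.3 and 99.9 in pifq. The groups did not overlap, with f1f3 between Col and pifq. IAA29 was 4.95-fold lower in pifq than in Col (limma adjusted p = 0.0138, log2 fold change -2.31, SE 0.38), while its difference in f1f3 (-1.06, adjusted p = 0.0743) and that between the mutants (-1.25, adjusted p = 0.0599) did not pass. Both of these differences passed with the replicate block. The fall in pifq missed the threshold without Col replicate 2 (adjusted p = 0.0665) and without pifq replicate 1 (0.0524). The f1f3 difference passed with DESeq2 (0.0336), in the fit of only those groups (0.0292) and without pifq replicate 1 (0.0313) or 2 (0.0346). That between the mutants passed with DESeq2 (0.0245), with library totals (0.0396, and 0.0367 at the deposited scale) and without pifq replicate 2 (0.0267).

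IAA20 (AT2G46990, chromosome 2, 19307714 to 19309071, plus strand) encodes an Aux/IAA protein without the degron through which TIR1/AFB receptors bind most of the family. Its values were 574.4 and 442.8 in Col, 336.7 and 175.5 in f1f3, and 158.1 and 68.1 in pifq. Again no groups overlapped, and the order was the same as for IAA29. IAA20 was 4.82-fold lower in pifq than in Col (limma adjusted p = 0.0242, log2 fold change -2.27, SE 0.44), and the differences of f1f3 from Col (-1.05, adjusted p = 0.113) and of pifq from f1f3 (-1.22, adjusted p = 0.096) did not pass. The call was lost without Col replicate 1 (adjusted p = 0.1), Col replicate 2 (0.0607) or pifq replicate 2 (0.0789). The difference between the mutants passed with DESeq2 (0.0472), with library totals at the deposited scale (0.0493) and without pifq replicate 1 (0.0377). With the replicate block this difference and that of f1f3 from Col both passed. Within the family IAA20 went from rank 10 by level in Col to rank 11 in f1f3 and rank 18 in pifq, and IAA29 from rank 13 to 17 and 21.

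The 300 bases before the annotated gene start are shown for these genes, for IAA19, another known PIF-responsive gene, and for IAA5, the 1 member called as higher in pifq than in f1f3. They are from the RefSeq TAIR10.1 genome, 5′ to 3′ on the strand of the gene. Capitals mark the G-box CACGTG, the PBE-box CACATG and the auxin response elements TGTCTC and TGTCGG, searched on both strands.
IAA29, chr4:15583032-15583331, plus strand: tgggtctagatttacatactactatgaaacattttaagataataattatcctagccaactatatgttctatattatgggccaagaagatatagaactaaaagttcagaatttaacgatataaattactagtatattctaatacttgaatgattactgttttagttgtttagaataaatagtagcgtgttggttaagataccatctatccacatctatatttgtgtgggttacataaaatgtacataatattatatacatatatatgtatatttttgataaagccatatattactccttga
IAA20, chr2:19307414-19307713, plus strand: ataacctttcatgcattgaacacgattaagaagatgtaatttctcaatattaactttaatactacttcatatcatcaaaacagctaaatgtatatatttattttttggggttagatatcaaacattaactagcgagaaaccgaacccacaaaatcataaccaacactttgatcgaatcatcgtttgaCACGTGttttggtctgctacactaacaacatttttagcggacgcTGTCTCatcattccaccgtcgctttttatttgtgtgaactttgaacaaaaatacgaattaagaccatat
IAA19, chr3:5263701-5264000, plus strand: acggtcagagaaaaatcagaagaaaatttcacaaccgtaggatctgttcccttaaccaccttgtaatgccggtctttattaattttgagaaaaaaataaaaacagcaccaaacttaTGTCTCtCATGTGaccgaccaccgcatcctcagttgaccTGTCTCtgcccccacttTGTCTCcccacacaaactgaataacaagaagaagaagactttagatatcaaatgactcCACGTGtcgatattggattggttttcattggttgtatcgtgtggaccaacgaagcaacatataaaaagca
IAA5, chr1:5366498-5366797, minus strand: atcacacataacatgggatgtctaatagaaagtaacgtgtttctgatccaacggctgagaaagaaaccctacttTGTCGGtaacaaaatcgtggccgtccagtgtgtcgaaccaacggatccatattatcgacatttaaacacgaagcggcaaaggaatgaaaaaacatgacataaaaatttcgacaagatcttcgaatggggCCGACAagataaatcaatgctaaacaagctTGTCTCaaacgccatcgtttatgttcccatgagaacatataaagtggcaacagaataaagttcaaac
The IAA20 window holds 1 G-box, which starts 113 bases before the gene, and 1 TGTCTC 69 bases before it. The IAA19 window has a G-box 70 bases before the gene, a PBE-box, and 3 copies of TGTCTC. None of these motifs is in the IAA29 window, which says only that these letters are not there. IAA5 has 2 copies of TGTCGG and 1 of TGTCTC, and neither kind of PIF-bound box. The G-box was found in 4 of 28 Aux/IAA windows (14.3%) and in 7.79% of 22766 windows of the same length over all genes. TGTCTC was in 11 Aux/IAA windows (39.3%, against 12.9% of all), TGTCGG in 6 (21.4%, against 5.2%) and the PBE-box in 8 (28.6%, against 13.3%). In the ARF windows these counts were 0 of 12 for the G-box, 2 for TGTCTC, 2 for TGTCGG and 1 for the PBE-box, and neither ARF6 nor ARF8 had a match.

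**Figure D3:**
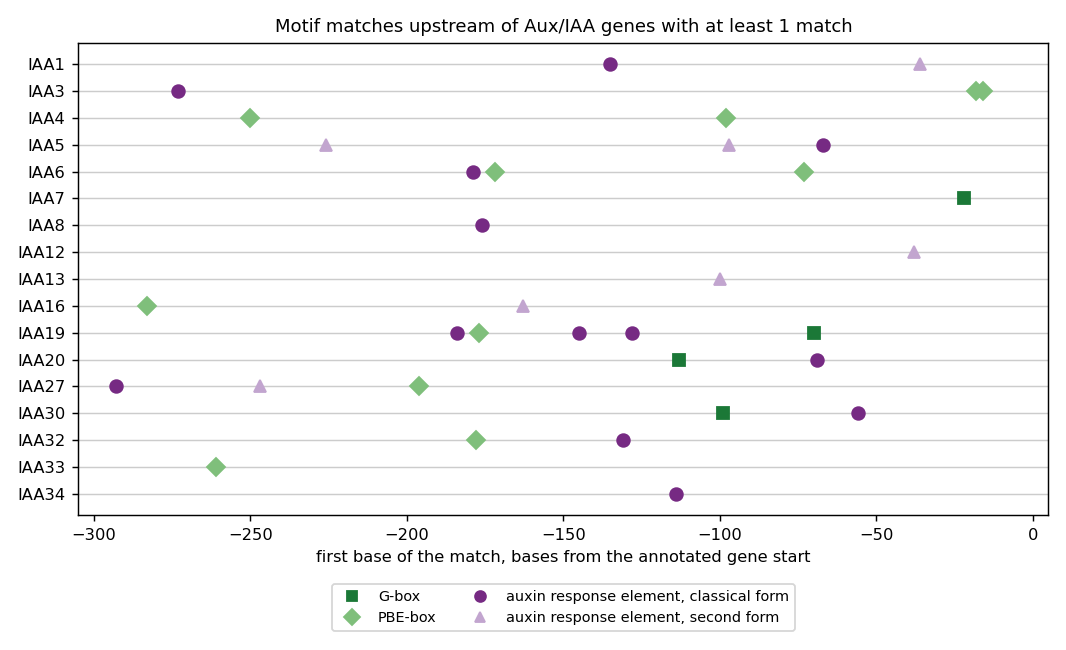
Position of each motif match in bases relative to the annotated gene start (horizontal axis) in the 300-base windows of the Aux/IAA genes with at least 1 match, 1 line per gene and 1 mark type per motif, where the classical auxin response element is TGTCTC and its second form TGTCGG. The G-boxes of IAA19 and IAA20 lie 70 and 113 bases before the gene start.

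IAA26 (AT3G16500, chromosome 3, 5612203 to 5614803, minus strand), also named PAP1, separated the mutants. Its values were 712.0 and 654.6 in Col, 783.4 and 818.9 in f1f3, and 430.4 and 347.3 in pifq. The pifq libraries were the lowest and the f1f3 libraries the highest, with no overlap. IAA26 fell in pifq against Col (limma adjusted p = 0.0374, log2 fold change -0.82, SE 0.18) and was lower in pifq than in f1f3 (-1.05, SE 0.18, adjusted p = 0.00766), with f1f3 at 0.23 against Col (adjusted p = 0.381). Against Col the call was lost when any 1 of the 6 libraries was left out, with adjusted p from 0.0541 without f1f3 replicate 1 to 0.176 without Col replicate 1, and in the fit of only those groups (0.058). Against f1f3 it was lost only without pifq replicate 2 (0.0533).

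IAA3 and IAA13 were the Aux/IAA genes that fell in f1f3. IAA3 (AT1G04240, also named SHY2, chromosome 1, 1128149 to 1129689, minus strand) encodes a repressor named for the short hypocotyl of its stabilised mutant. Its values were 831.5 and 833.1 in Col, 564.3 and 479.2 in f1f3, and 591.7 and 563.0 in pifq. Both mutants lay below Col and overlapped with each other. IAA3 fell in f1f3 (limma adjusted p = 0.0247, log2 fold change -0.68, SE 0.17), and its difference in pifq (-0.53) did not pass (adjusted p = 0.11). IAA13 (AT2G33310, chromosome 2, 14113025 to 14116089, minus strand), a close relative of IAA12/BODENLOS, which acts in the embryo, gave the same order. It stood at 699.1 and 692.2 in Col, 457.3 and 437.1 in f1f3, and 547.8 and 464.2 in pifq, with f1f3 lowest and no overlap between groups. It fell in f1f3 (-0.64, SE 0.17, adjusted p = 0.0323), and pifq (-0.46) did not pass (adjusted p = 0.156).

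The falls of IAA3 and IAA13 in f1f3 depended on the scaling. With library totals at the deposited scale 0 members fell in f1f3. With plain library totals, whose smaller scale also shrinks fold changes, the adjusted p was 0.0561 for IAA3 and 0.0865 for IAA13. For IAA3 it was 0.101 and 0.111 when Col replicate 1 or 2 was left out and 0.126 when f1f3 replicate 2 was. For IAA13 the same omissions gave 0.127, 0.13 and 0.128, and omission of f1f3 replicate 1 gave 0.0797. The counts of both genes are also uncertain because genes annotated in RefSeq TAIR10.1 overlap them, IAA3 by 640 bases and IAA13 by 1176 bases. The gene that overlaps IAA3 is in the files, and the one that overlaps IAA13 is not. The sources used here do not say whether strand was used in counting.

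IAA5 (AT1G15580, chromosome 1, 5365512 to 5366497, minus strand), an early auxin-induced Aux/IAA gene, went the other way at a low level. Its values were 16.7 and 8.8 in Col, 6.4 and 8.8 in f1f3, and 60.7 and 26.1 in pifq. Both pifq libraries were above all others, and they lay far apart from each other. IAA5 was higher in pifq than in f1f3 (limma adjusted p = 0.0472, log2 fold change 2.26, SE 0.64), and its difference from Col in pifq (1.63, adjusted p = 0.17) did not pass. The call was lost with any 1 library left out except Col replicate 2, and with library totals at the deposited scale. Over the omissions its log2 fold change ranged from 1.67 to 2.86. The higher pifq value is from replicate 1, the library with the seed storage transcripts. The part of those transcripts in the IAA5 result was not tested.

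IAA17 and IAA19 missed the threshold narrowly in pifq, and they are named here after their values were seen. IAA17 (AT1G04250, also named AXR3) encodes an abundant repressor whose stabilised form makes plants auxin resistant. It stood at 3250.0 and 2409.3 in Col, 2131.1 and 1209.5 in f1f3, and 1520.4 and 1102.1 in pifq, so that both mutants lay below Col. Its log2 fold change in pifq was -1.11 (SE 0.30, limma adjusted p = 0.0669), and it passed with DESeq2 (0.0092) and with library totals (0.036). IAA19 (AT3G15540), required for hypocotyl growth and curvature, stood at 1624.4 and 1188.5 in Col, 1304.3 and 775.9 in f1f3, and 713.9 and 405.2 in pifq. Both pifq libraries and f1f3 replicate 2 lay below both Col libraries. Its log2 fold change in pifq was -1.37 (SE 0.33, limma adjusted p = 0.0506), and it passed with DESeq2 (0.0039) and with library totals (0.0278). The share of IAA17 in the summed Aux/IAA transcripts per kb went from 12.1% in Col to 8.8% in f1f3 and 7.1% in pifq, and that of IAA19 from 7.8% to 7.1% and 3.9%.

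IAA3 and IAA17 are neighbours on chromosome 1, transcribed away from each other with 6388 bases between them and no gene of the files in the gap. Both lay below Col in both mutants without overlap, and so did IAA2 and IAA7, a pair in the same arrangement 12510 bases apart. IAA14 and IAA1, 10732 bases apart, did not. Of these 6 genes IAA3 passed, in f1f3 against Col, and the others passed in no comparison with limma. Lying below Col without overlap was common, with 33% of all tested genes in f1f3 and 27.4% in pifq. Among the members it was 47.7% and 61.4%. Whether neighbours changed together was not tested.

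**Figure D4:**
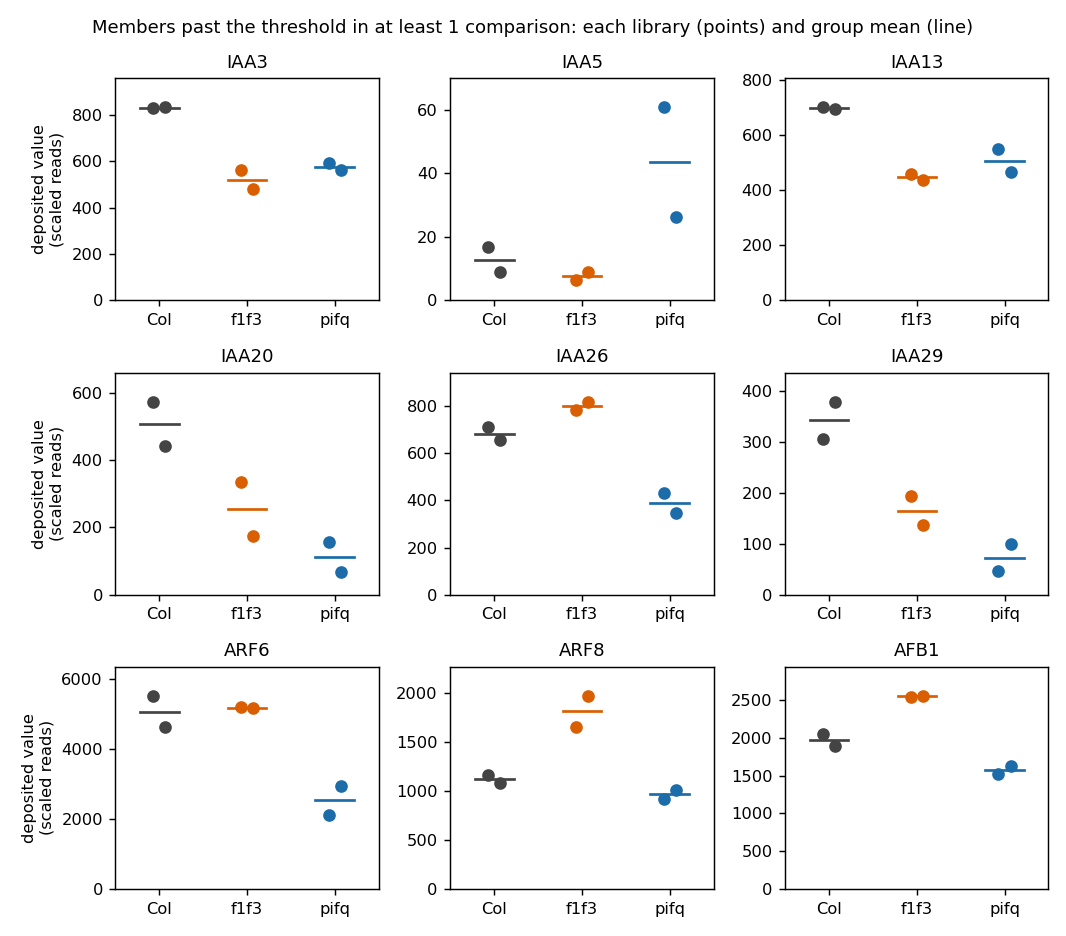
Deposited value (read count divided by the library's size factor) in each of the 6 libraries for the 9 members that passed in at least 1 comparison, 1 panel per gene, with points for libraries and lines for the mean of 2 libraries. IAA20 and IAA29 are highest in Col and lowest in pifq, ARF6 is low only in pifq, and ARF8 and AFB1 are highest in f1f3.

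ARF6 and ARF8 encode close relatives among the activating ARFs. They act together in flower maturation and promote hypocotyl elongation, and both are targets of miR167. They passed against Col in different mutants. ARF6 (AT1G30330, chromosome 1, 10685822 to 10690988, minus strand) stood at 5510.5 and 4615.5 in Col, 5191.7 and 5164.6 in f1f3, and 2108.1 and 2945.3 in pifq. The f1f3 libraries lay within the range of Col, and both pifq libraries lay far below the other 4. ARF6 fell in pifq (limma adjusted p = 0.0318, log2 fold change -1.02, SE 0.21) and was lower in pifq than in f1f3 (-1.05, SE 0.21, adjusted p = 0.0147), with 0.04 in f1f3 against Col (adjusted p = 0.916). The fall against Col was lost without Col replicate 1 (0.163), Col replicate 2 (0.0881) or pifq replicate 1 (0.188), and that against f1f3 without f1f3 replicate 1 (0.0556), f1f3 replicate 2 (0.0679) or pifq replicate 1 (0.0784), the library with the seed storage transcripts. The part of those transcripts in the result was not tested.

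ARF8 (AT5G37020, chromosome 5, 14629453 to 14634454, plus strand) stood at 1166.9 and 1079.9 in Col, 1654.7 and 1973.2 in f1f3, and 923.9 and 1014.7 in pifq. Both f1f3 libraries were above all others, and both pifq libraries lay just below Col. ARF8 rose in f1f3 (limma adjusted p = 0.0236, log2 fold change 0.69, SE 0.17) and was lower in pifq than in f1f3 (-0.90, SE 0.17, adjusted p = 0.0111), and pifq against Col (-0.21) did not pass (adjusted p = 0.495). The rise was lost when Col replicate 1 (0.0762), Col replicate 2 (0.126) or f1f3 replicate 2 (0.126) was left out, and so was the difference between the mutants without f1f3 replicate 2 (0.0704) or pifq replicate 1 (0.0589). In f1f3 ARF8 went from rank 5 to rank 4 among the ARFs, with 8.7% of the summed ARF transcripts against 4.9% in Col.

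Of the remaining ARFs, all 10 stayed short of the threshold in each comparison with limma. In f1f3 1 of the 5 activators, ARF8, was called and was higher, and in pifq 1, ARF6, was called and was lower, with the same counts from edgeR and DESeq2, where 11.6% of all genes were higher in f1f3 and 2.87% lower in pifq. A count of 1 in so small a group says little against these shares. All 5 had log2 fold changes below 0 in pifq, from -1.02 for ARF6 to -0.03 for ARF5. Of the 4 repressors (ARF1 to ARF4) and the 3 repressors targeted by miR160 (ARF10, ARF16 and ARF17), 0 were called in f1f3 and 0 in pifq. With edgeR 0 were called too, and with DESeq2 1 of the 4, ARF2, fell in pifq. At an unadjusted p under 0.05, 1 of the 4 was higher in f1f3, and 1 was higher and 1 lower in pifq. Of the 3, 1 was lower in pifq at that level. Among all genes, 39.1% passed that unadjusted level in f1f3 against Col and 23.5% in pifq against Col. ARF3, whose mRNA is cut by small RNAs made from TAS3 transcripts, was above Col in both libraries of both mutants, at 741.1 and 721.5 in f1f3 and 836.9 and 729.8 in pifq against 555.2 and 518.1 in Col. It was named after its values were seen.

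The sites that link these genes to microRNAs are shown because ARF6 and ARF8 carry nearly the same miR167 site and passed against Col in different mutants, and because AFB1 has the poorest miR393 site of the receptors that carry one. The mature microRNAs are from RefSeq TAIR10.1, with the seed (bases 2 to 8) in capitals.
miR167a, chr3:8108090-8108110, plus strand: uGAAGCUGccagcaugaucua
miR160a, chr2:16340282-16340302, plus strand: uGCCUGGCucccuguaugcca
miR393a, chr2:16652111-16652132, plus strand: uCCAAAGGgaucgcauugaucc
The best matching window in each transcript, all in coding sequence, is given 5′ to 3′ on the strand of the gene, with capitals at bases that differ from the perfect complement of the microRNA.
ARF6, miR167 site, chr1:10686478-10686498, minus strand: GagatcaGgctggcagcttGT
ARF8, miR167 site, chr5:14633841-14633861, plus strand: tagatcaGgctggcagcttGT
ARF17, miR160 site, chr1:29274189-29274209, plus strand: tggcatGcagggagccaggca
TIR1, miR393 site, chr3:23273727-23273748, minus strand: gAGAcaatgcgatccctttgga
AFB1, miR393 site, chr4:1405341-1405362, minus strand: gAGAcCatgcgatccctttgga
AFB2, miR393 site, chr3:9870237-9870258, plus strand: gAaAcaatgcgatccctttgga
ARF6 has 4 such bases and ARF8 has 3, which ARF6 shares, so that ARF6 differs by the first base alone. For miR160, ARF17 has 1, ARF10 has 2 and ARF16 has 3. For miR393, AFB2 and AFB3 have the same site with 2, TIR1 has 3 and AFB1 has 4, while the best window of AFB5 has 8.

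Precursor loci of these small RNAs are poorly covered by libraries of this kind, and their list was written after the members' values had been seen. Of 11 loci in the files 3 were tested, and limma and edgeR called 0 in each comparison. DESeq2 called 1, in f1f3, and 1 was lower at an unadjusted p under 0.05 there. Among all genes, limma called 24.4% in f1f3 against Col, and 39.1% had an unadjusted p under 0.05. MIR167D, a precursor of a miR167 family member, stood at 154.2 and 176.8 in Col, 64.6 and 65.0 in f1f3, and 39.1 and 140.7 in pifq. It was lower in both libraries of both mutants than in Col (log2 fold changes -1.34, limma adjusted p = 0.0974, and -1.14, adjusted p = 0.236). Precursor reads do not measure the mature microRNA.

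None of the receptor genes passed against Col in either mutant with limma, edgeR or DESeq2. Limma called 24.4% of all genes in f1f3 and 6.48% in pifq. At an unadjusted p under 0.05, 1 receptor gene was higher in f1f3 and 1 lower in pifq, where 39.1% and 23.5% of all genes passed. All 5 lay below Col in both pifq libraries, as did 27.4% of all genes, with log2 fold changes from -0.54 for AFB2 to -0.10 for AFB5. AFB1 (AT4G03190, also named GRH1, chromosome 4, 1404887 to 1407402, minus strand), the receptor linked to rapid auxin responses in roots, passed between the mutants. It stood at 2056.2 and 1890.3 in Col, 2546.1 and 2556.0 in f1f3, and 1525.2 and 1620.8 in pifq. The groups did not overlap, with f1f3 highest and pifq lowest. AFB1 was lower in pifq than in f1f3 (limma adjusted p = 0.0225, log2 fold change -0.70, SE 0.16), and neither f1f3 (0.37, adjusted p = 0.122) nor pifq (-0.33, adjusted p = 0.26) passed against Col. The call was lost without f1f3 replicate 1 (0.0734), f1f3 replicate 2 (0.0901), pifq replicate 1 (0.0969) or pifq replicate 2 (0.0831). In RefSeq TAIR10.1 a long non-coding RNA gene that is not among the genes of the files overlaps AFB1 by 423 bases. A protein-coding gene of the files overlaps AFB1 by 51 bases. Whether either affected the count of AFB1 was not tested. TIR1 itself stood at 4918.1 and 4598.9 in Col, 4698.3 and 3755.0 in f1f3, and 3832.1 and 3759.1 in pifq.

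Some root and shoot apex markers also differed between genotypes. In f1f3, 3 of 10 root markers rose and 0 fell (30%, where 11.6% of all genes rose), while 5 of the 10 had fold changes below 0 and the list's median was 0.01 on the log2 scale. Those that rose were the root stem-cell factor PLT2 (log2 fold change 1.76, limma adjusted p = 0.0256), the root hair gene COBL9 (1.18, 0.0285) and the root hair expansin EXPA7 (1.06, 0.042). Of 6 shoot apex markers 1, the epidermal gene PDF1, rose (1.43, 0.0189), which is 16.7% where 11.6% of all genes rose. The median of this list in f1f3 was 0.33, and 2 of the 6 had fold changes below 0. Sums of values weigh the abundant markers most and do not describe every marker. The summed values of the root markers were 7874 and 6074.5 in Col, 6855.7 and 5624.5 in f1f3, and 4075.8 and 4955.3 in pifq, and the summed shoot apex markers 28235 and 20668 in Col, 62987 and 48681 in f1f3, and 22874 and 28172 in pifq. No root or shoot marker was at 0 in any library. In pifq against Col, limma called 0 of the 10 root markers, where it called 6.48% of all genes. Their median log2 fold change there was -0.19, and 8 of the 10 were below 0. Both pifq libraries lay below both Col libraries for 30% of them, near the 27.4% of all genes. ARF8 and AFB1 were highest in the same f1f3 libraries, and 4 members fell in pifq, where the root sum was lowest. The part of root and shoot markers in these results was not tested.

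Among family members outside the 45, 7 were in the files and 4 were tested. ARF18 (AT3G61830, chromosome 3, 22887889 to 22891455, plus strand), a repressor related to ARF2, had a larger fold change in pifq than any ARF of the 45. It stood at 1529.3 and 1731.9 in Col, 2014.6 and 2159.2 in f1f3, and 412.8 and 466.5 in pifq. All groups were apart, with pifq far below the others. ARF18 was 3.7-fold lower in pifq than in Col (log2 fold change -1.89, SE 0.17, limma adjusted p = 0.00124), lower than in f1f3 too (-2.25, SE 0.17, adjusted p = 0.00028), and both calls held under all 15 alternatives, with adjusted p at most 0.0127 and 0.0034. The other tested genes (ARF9, ARF11 and AFB4) did not pass in any comparison.

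The components on either side of the receptors and repressors gave no calls. Of 5 TOPLESS family co-repressors, 10 genes of the SCF ubiquitin ligase and its regulators and 4 tested genes of auxin signalling at the cell surface, 0 passed in any comparison with limma, edgeR or DESeq2. Of all genes, limma called 24.4% in f1f3 and 6.48% in pifq against Col, and 16% between the mutants. At an unadjusted p under 0.05 there were 2 lower SCF genes in f1f3, where 39.1% of all genes passed. In pifq there were 1 higher co-repressor and 1 lower SCF gene at that level, where 23.5% of all genes passed.

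Of 17 auxin response genes outside the families, 4 fell and 0 rose in f1f3 (23.5%, where 12.8% of all genes fell). With DESeq2 2 rose and 6 fell, and with edgeR 0 and 4. At an unadjusted limma p under 0.05, 2 were higher and 7 lower, where 39.1% of all genes passed in either direction. The genes that fell included GH3.2, which joins auxin to amino acids, with 485.8 and 765.8 in Col and 400.2 and 280.0 in f1f3 (log2 fold change -0.86, limma adjusted p = 0.0475). The others were TMO5, a target of ARF5, with 447.2 and 359.7 against 224.4 and 253.7 (-0.75, adjusted p = 0.03), the small auxin-up gene SAUR15, with 24.4 and 31.5 against 7.4 and 7.0 (-1.81, adjusted p = 0.0463), and ACS4, an auxin-inducible enzyme of ethylene synthesis, with 11.6 and 19.3 against 1.1 and 2.6 (-2.54, adjusted p = 0.0265). In each of them both f1f3 libraries lay below both Col libraries. For ACS4 these are 1 and 3 reads in f1f3 against 9 and 22 in Col, so its fitted fold change depends on the pseudocount. With library totals none of these falls passed (adjusted p from 0.0531 for SAUR15 to 0.0889 for ACS4). That setting also gives the pseudocount more weight, most of all for low genes such as SAUR15 and ACS4. Without Col replicate 2 the adjusted p was 0.254 for GH3.2, 0.0651 for TMO5, 0.208 for SAUR15 and 0.144 for ACS4, and without f1f3 replicate 2 it was 0.231, 0.0815, 0.146 and 0.0624. Leaving out Col replicate 1 or f1f3 replicate 1 gave 0.171 and 0.107 for TMO5, 0.122 and 0.11 for SAUR15, and 0.0608 and 0.0843 for ACS4. Without either pifq library GH3.2 (0.066 and 0.067), SAUR15 (0.0644 and 0.0589) and ACS4 (0.0517 and 0.0506) also missed the threshold.

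In pifq 1 of the 17 response genes rose and 0 fell (5.88%, near the 3.61% of all genes that rose and the 2.87% that fell). It was GH3.6, another auxin-conjugating enzyme, with 814.8 and 733.4 in Col, 798.2 and 546.8 in f1f3, and 1423.0 and 1727.5 in pifq. Both pifq libraries were above all others, and GH3.6 rose in pifq against Col (limma adjusted p = 0.0339, log2 fold change 1.02, SE 0.22) and was higher than in f1f3 (1.25, adjusted p = 0.00831). The rise against Col was lost when Col replicate 1 (0.106) or 2 (0.144) was left out, and likewise pifq replicate 1 (0.102) or 2 (0.13), and the difference from f1f3 without pifq replicate 2 (0.0596). With DESeq2 1 response gene also fell, and with edgeR 0. At an unadjusted limma p under 0.05, 2 were higher and 2 lower in pifq than in Col, where 23.5% of all genes passed in either direction. Between the mutants 3 of the 17 were higher in pifq (17.6%, against 9.36% of all genes) and 1 was lower (5.88%, against 6.63%). The higher ones were GH3.6, the vascular factor HB-8 (0.80, adjusted p = 0.0282) and ACS4 (3.72, adjusted p = 0.00831), and the lower one was the ARF5 target TMO7 (-1.35, adjusted p = 0.0427). HB-8 was lost in 6 of 15 alternatives, among them the omission of any 1 of the f1f3 or pifq libraries. TMO7 was lost in 3, among them the omissions of f1f3 replicate 2 and of pifq replicate 1. ACS4 was lost in 2, without pifq replicate 1 or pifq replicate 2.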

How the data were processed

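The labels name whole dark-grown seedlings, 3 genotypes and 2 biological replicates each. Per the submitters' processing notes, Trimmomatic, TopHat2 2.1.0, HTSeq 0.6.1 and edgeR were used with TAIR10; which step made the deposited signal values, and whether counting used strand, is not given in the sources used here. The deposited signal values were whole reads divided by a factor of the library. Of the values checked, those of at most 2000 reads, 99.96% to 100% in a library came out as whole reads within a tolerance of 0.0505. The factor was taken as a median-of-ratios factor, since the value of 1 read times that factor, computed from the recovered reads, was 0.999999 to 1. The test was limma 3.58.1 (R 4.3.3) with an intensity trend on log2(value + 1), two-sided, with all 6 libraries, 3 residual and 5.15 prior degrees of freedom. Fold changes on this scale understate those of low genes. Alternatives were edgeR 4.0.16 with TMM factors and DESeq2 1.42.0 on the recovered reads, library totals, pseudocounts of 0.5 and 5, no filter, only the groups compared, a replicate block and leaving out each library. All values in the text are from the fit without the block unless named. Plain library totals are on a smaller scale than the deposited values. The same pseudocount therefore shrinks fold changes more there, those of low genes most. Library totals at the deposited scale were added after the data were seen.

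The members follow from their families and not from their values, but the families, lists and tests were chosen with earlier results of these data known. Named were members past the threshold in any comparison, and up to 4 genes past it per other list and mutant; genes named for their level were picked after their values were seen. Members past no threshold were otherwise given by counts and levels. Gene positions, exon lengths, windows and sites are from RefSeq TAIR10.1, matched by locus identifier, with 45 of 45 members and 23207 of 24439 genes found. Windows are the 300 bases before the annotated start.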

Additional observations from a re-analysis of the deposited data

How the results depend on the processing

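With 2 libraries per genotype, no call on a single member held in every fit that left 1 library out. Most of these calls held in some of those fits. Leaving 1 out leaves a group with a lone library that is assumed to vary like the others. Counts of called members are given as risen in f1f3 and in pifq against Col and higher in pifq than in f1f3, then fallen in the same order: 1, 0, 1, 2, 4 and 4 with limma. No direction of a called value reversed under any of the 15 alternatives. DESeq2 moved the fallen in pifq to 7. Library totals, and totals at the deposited scale, moved the fallen in f1f3 to 0, and the latter moved pifq against f1f3 to 0 higher and 7 lower. Leaving out 1 library gave ranges of 0 to 1, 0 to 0, 0 to 1, 0 to 3, 0 to 5 and 1 to 4. In the labels, libraries of different genotypes with the same replicate number share only that number, and no label says that it marks a batch. Still, the differences between replicates 1 and 2 correlated across genes at 0.345 for f1f3 and Col, 0.444 for pifq and Col and 0.215 for pifq and f1f3. Each genotype gives only 1 such difference, and a swap of its replicate numbers would only turn the sign of its correlations. These values therefore cannot show whether libraries of the same number share variation. With the replicate block the counts were 2, 1, 1, 9, 8 and 7, and IAA20 and IAA29 passed in f1f3 against Col (adjusted p = 0.0111 and 0.0461, limma) and in pifq against f1f3 (0.00778 and 0.033). Over all genes, f1f3 against Col gave 5018 calls, 7436 with the replicate block and 1460 without f1f3 replicate 2, pifq against Col 1333 calls, 2429 with DESeq2, 2915 with the replicate block and 358 to 551 without 1 Col or pifq library, and pifq against f1f3 3291 calls, 5458 with the block and 1394 without pifq replicate 2. A chi-square of the reads, pooled over genes, was 43.4 to 53.4 per degree of freedom in the replicate pairs, far above sampling noise. It weighs abundant genes most and was not computed for single members. IAA5, IAA30, IAA31, IAA33 and IAA34 rest on few reads.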
